A study of Bos taurus with 88 samples.

Results

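Blood gene expression at 48 h of age was compared between dairy calves and naturally suckled beef calves. The comparison takes in 22 of the 88 samples of the series, chosen by the time point and breed in the sample labels: 8 Holstein calves (H, labelled holstein friesian) against 14 beef calves, of which 7 had Charolais × Limousin dams (CL) and 7 had dams crossed from Limousin and Friesian (LF). Whole blood of the same 22 calves was also taken at 0, 72 and 168 h, and every sample gave 1 RNAseq library. The study followed how immunity develops in calves under the feeding used for each production system.

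The H calves were born on a research dairy farm and taken from the dam within minutes of birth, before they could suckle. They were fed colostrum of their own dam, first by tube, at a share of body weight set for the study. They were kept in individual pens at first. Before the 168 h sample they were moved to a group pen and fed milk replacer. The CL and LF calves were born in a beef suckler herd at another site and stayed with their dams, with free suckling. They were sired by Aberdeen Angus or Charolais bulls, and CL and LF name the breed of the cow. All cows of both systems had been vaccinated before calving against a bovine herpesvirus and against rotavirus, coronavirus and E. coli. These conditions went together in every calf, so breed, farm, feeding and separation from the dam cannot be told apart in any difference from 48 h on. In both systems the 0 h blood was taken before the first colostrum. At that age breed, farm and separation from the dam cannot be told apart.

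A calf is born with almost no circulating antibody because the bovine placenta does not let maternal immunoglobulin through. Colostrum, the first milk, supplies antibodies, leukocytes, cytokines and hormones, and the gut takes up whole immunoglobulin only for about the first day of life. At 48 h that uptake has ended. Whole blood RNA comes mainly from granulocytes, lymphocytes and monocytes, with a part from immature red cells and platelets. In such bulk samples, fewer cells of a type and less RNA per cell cannot be told apart.

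The values are counts of reads per Ensembl gene. The genes carry Ensembl identifiers only, and 0 of them could be matched to a symbol with the reference table at hand. Gene families, pathways and markers of blood cell types were therefore not analysed here, the labelled tissue was not checked against markers, and the few genes singled out are given by identifier with no statement of their function.

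The libraries of the 2 systems differed in depth and composition. Reads counted on genes numbered 17368423 to 25960137 per library in H calves and 20350871 to 30998999 in beef calves, so that 3 counts correspond to 0.0969 to 0.389 CPM (the count scaled to a common normalised library size), with the highest value in the shallowest library, that of H calf 6. Mean depth was lower in H calves by an amount beyond the spread between calves (exact two-sided permutation test, adjusted p = 0.0058 over 6 library measures). Multimapping reads, which fit more than 1 place in the genome and are not counted on genes, made up a median of 16.8% of reads in H calves (lowest 10.4%, highest 49.1%) and 9.38% in beef calves (6.42% to 18.0%). That difference was also beyond the spread (adjusted p = 0.0058, exact two-sided permutation test), as was the share of gene counts on the 10 most abundant genes of each library, with a median of 11.3% in H calves and 6.86% in beef calves (exact permutation test, adjusted p = 0.0058). The unmapped share and the share of reads outside genes did not pass the same test (exact permutation, adjusted p = 0.357 and 0.901).

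H calf 6 stood apart from the other dairy calves. At 48 h, 49.1% of its reads were multimapping and 48.8% of its gene counts fell on its 10 most abundant genes, against at most 25.5% and 20.2% in the other 7 H calves. The same calf also had 41.0% multimapping reads at 0 h and 45.7% at 72 h, but 12.7% at 168 h. Without H calf 6, depth, multimapping share and the share on the 10 most abundant genes still differed between the systems (exact permutation test, adjusted p = 0.0188 for each). The main counts below are given with and without this calf.

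**Figure D1:**
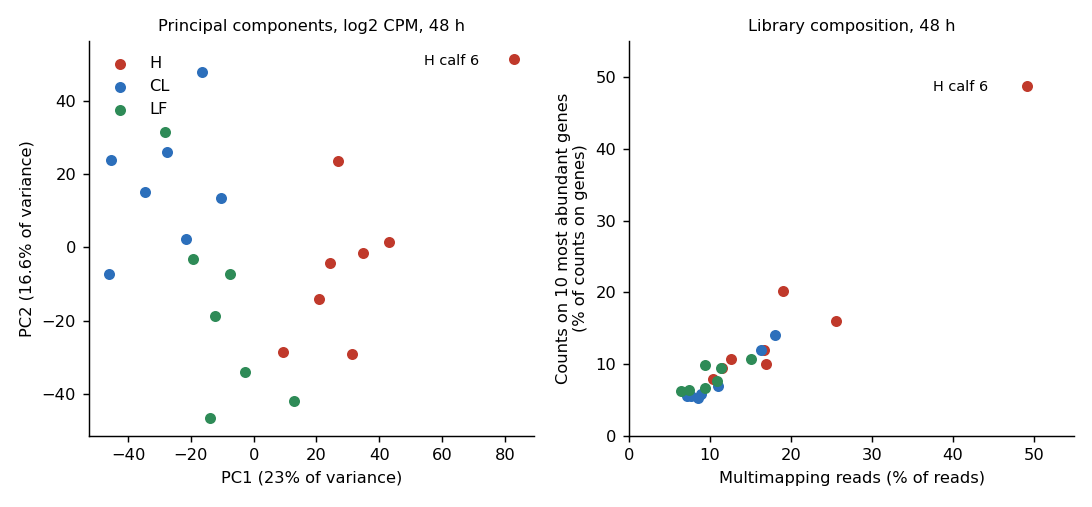
Libraries of the 22 calves at 48 h. The left panel plots the first 2 principal components of log2 CPM, with 1 point per calf coloured by breed; the right panel plots the share of multimapping reads against the share of gene counts on the 10 most abundant genes, both in percent. H calf 6 is at the far right of both panels, and the H calves lie to the right of all beef calves but 1 on the first component.

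Dairy and beef calves separated in overall expression at 48 h. On the first principal component, which held 23% of the variance of log2 CPM, H calves ran from 9.35 to 83.0 and beef calves from −46.1 to 13. Only 1 of the 14 beef calves, an LF calf, lay above the lowest H calf. By distance over all genes, the nearest other library came from the same production system for 7 of 8 H calves and 14 of 14 beef calves. It came from the same beef breed for 6 of 7 CL calves and 5 of 7 LF calves. Without H calf 6, 3 beef calves lay above the lowest H calf on the first component, and the nearest library was an H calf for 6 of 7.

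Of 12965 genes tested at 48 h, 1606 (12.4%) differed between dairy and beef calves by edgeR's quasi-likelihood test, with an adjusted p under 0.05 and a change of 1.5-fold or more. These are called differentially expressed genes (DEG) in what follows. Most of them, 1151 genes or 8.88% of those tested, were higher in dairy calves, and 455 genes (3.51%) were lower. At an unadjusted p under 0.05 the count was 5423 genes, or 41.8%. The median log2 fold change of all tested genes was −0.03.

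With all calves in the fit, the higher DEG also differed by more. Their median fold was 2.05, against 1.73 for the lower DEG, or 1.03 and −0.79 on the log2 scale. The median log2 fold change of the higher DEG was 0.85 without H calf 6. With the multimapping share entered in the fit the medians were 0.73 and −0.85, so the order depended on the fit. The counts that follow are from the fit with all calves. A difference of at least 4-fold was found for 141 higher and 34 lower DEG, and one of at least 8-fold for 27 and 14. By level, higher DEG made up 15.1% of genes with a mean under 1 CPM, 10.8% of those from 1 to 10 CPM, 6.24% of those from 10 to 100 CPM and 10.8% of those at 100 CPM or more. Lower DEG made up 5.98%, 7.12%, 1.93% and 1.03% of the same 4 classes. Among the most abundant transcripts, 221 genes were therefore higher and 21 lower in dairy calves.

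**Figure D2:**
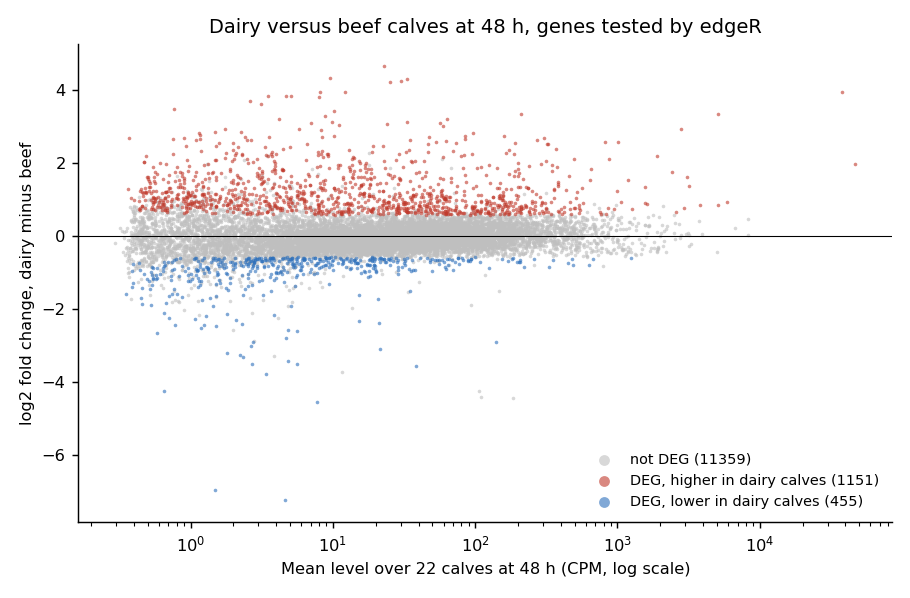
Difference between dairy and beef calves at 48 h against gene level. Each point is 1 of the 12965 genes tested, with the mean CPM over 22 calves on a log axis and the log2 fold change (dairy minus beef) on the vertical axis; the 1151 DEG that were higher and the 455 that were lower in dairy calves are coloured. At 100 CPM or more, 221 DEG lie above 0 and 21 below.

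A complete separation of the calves was uncommon. In 66 of the tested genes (0.509%) every H calf was above every beef calf, and 49 of these were DEG. In 33 genes (0.255%) every H calf was below every beef calf, and 14 of these were DEG. The 49 and 14 are 4.26% of the higher and 3.08% of the lower DEG, so in most DEG the calves of the 2 systems overlapped.

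Single calves held the highest values of many DEG. H calf 6 had the highest value of all 22 calves in 627 of the 1151 higher DEG (54.5%), against 16.7% of all tested genes, and in 119 of the 141 that differed by at least 4-fold (84.4%). Its normalisation factor was 0.444, against 0.832 to 1.01 in the other H calves at 48 h. This raises the CPM of H calf 6 well above its share of counts. When this calf was left out, 848 of the 1151 genes were still DEG in the same direction, and their median log2 fold change went from 1.03 to 0.85 over the whole list. Of the 141 genes, 73.05% were still DEG without H calf 6 and 36 still differed by at least 4-fold, and their median log2 fold change went from 2.45 to 1.59. In total, 910 higher and 412 lower DEG were found without H calf 6. On the other side, CL calves 2 and 4 and LF calf 4 held the highest value in 20 of the 34 genes that were at least 4-fold lower in dairy calves, and CL calf 4 alone in 17 of them. Over all 455 lower DEG these 3 beef calves held the highest value in 107 (23.5%), against 13.2% of all tested genes, and 319 of the 455 were still DEG without them. The 3 beef calves were singled out because they held these values, so smaller folds without them follow from that choice. H calf 6 was set apart by the composition of its library. The lists were called with that calf included, so part of the fall in fold without it can follow from how the lists were made.

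Both the higher and the lower DEG varied more between calves of 1 breed than genes in general. The median standard deviation of log2 CPM among the 8 H calves was 0.68 in the higher DEG, 0.45 in the lower DEG and 0.32 over all tested genes. Among the 7 CL calves it was 0.48, 0.35 and 0.23, and among the 7 LF calves 0.49, 0.52 and 0.32. The H values were 0.51, 0.40 and 0.28 without H calf 6. The DEG were called in these same samples with a threshold on fold, so their spread beside that of all genes depends in part on that choice.

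The count of higher DEG fell when the multimapping share was entered in the fit. With this share as a covariate in the fit, 1144 genes were DEG, 637 higher and 507 lower in dairy calves, so that 55.7% of the DEG were higher instead of 71.7%. Of the 1151 higher DEG, 548 were still called, and of the 455 lower DEG, 291. The median log2 fold change of the higher DEG went to 0.73, while that of the lower DEG was −0.85, against −0.79 without the covariate. Among the 14 beef calves alone, the median Pearson's r between a gene's log2 CPM and the log2 of the multimapping share was 0.13 for the higher DEG, 0.12 for the lower DEG and −0.03 for all tested genes, where the genes share libraries. Since the share itself differed between the systems, its part in the result cannot be told apart from that of the production system by this fit. H calf 6, at 49.1% against at most 25.5% in the other calves, weighs heavily in such a covariate. The fit with the covariate was not run without that calf.

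ENSBTAG00000019106 had the smallest p of all genes that were higher in dairy calves. Its level in H calves was 129.3 CPM at the lowest, 158 CPM at the median and 244 CPM at the highest, and in beef calves 47.5, 65.2 and 76.1 CPM. All 8 H calves were above all 14 beef calves. The highest level was that of H calf 6, although its share of gene counts on this gene (0.0108%) was the lowest of the H calves. The log2 fold change was 1.35 (SE 0.10, edgeR adjusted p = 3.16e-08), and 1.27 without H calf 6 (SE 0.09, edgeR adjusted p = 8.88e-09). The CL calves (52.8 to 71.9 CPM) and the LF calves (47.5 to 76.1 CPM) had overlapping ranges.

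ENSBTAG00000037644 was the most abundant of the genes with the largest folds. It was at 3817 CPM in the lowest H calf, 33910 CPM at the median and 521700 CPM in H calf 6, where it took 23.2% of the counts on genes. The normalised level of that library exceeds its share of counts because the normalisation sets the few dominant genes aside. In beef calves the lowest, median and highest levels were 70.2, 2056 and 27730 CPM. Levels in both groups spread over more than a decade, with 5 of 8 H calves above every beef calf and 6 of 14 beef calves above the lowest H calf. The log2 fold change was 3.93 (SE 0.95, edgeR adjusted p = 0.00437). It was 2.39 without H calf 6 (SE 0.83, edgeR adjusted p = 0.0388) and 1.25 with the multimapping share as a covariate, where it was no longer called (edgeR adjusted p = 0.174).

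ENSBTAG00000034973 had the largest fold of the genes that were lower in dairy calves, and it was either present or nearly absent in a given calf. The 8 H calves had 6 counts in all and at most 2 each, or 0 to 0.26 CPM. Of the 14 beef calves, 9 (5 CL and 4 LF) had 198 to 439 counts, or 6.55 to 16.4 CPM, and the other 5 had at most 2 counts. Pooled over libraries, counts per read on genes were 219 times as high in beef calves, with a 95% exact interval of 100.6 to 598.2 that covers counting error only. The fitted log2 fold change was −7.23 (SE 1.46, edgeR adjusted p = 0.00137), a value that depends on the prior count. The low H levels were thus shared by 5 of the beef calves, and the groups overlapped.

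ENSBTAG00000012449 had the smallest p of the genes that were lower in dairy calves. Its level was 9.41, 13.4 and 15.4 CPM in H calves (lowest, median and highest) and 18.4, 21.7 and 28.9 CPM in beef calves. Every H calf was below every beef calf, although the difference was less than 2-fold. The log2 fold change was −0.79 (SE 0.09, edgeR adjusted p = 3.64e-05), and −0.78 without H calf 6 (edgeR adjusted p = 6.28e-05).

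**Figure D3:**
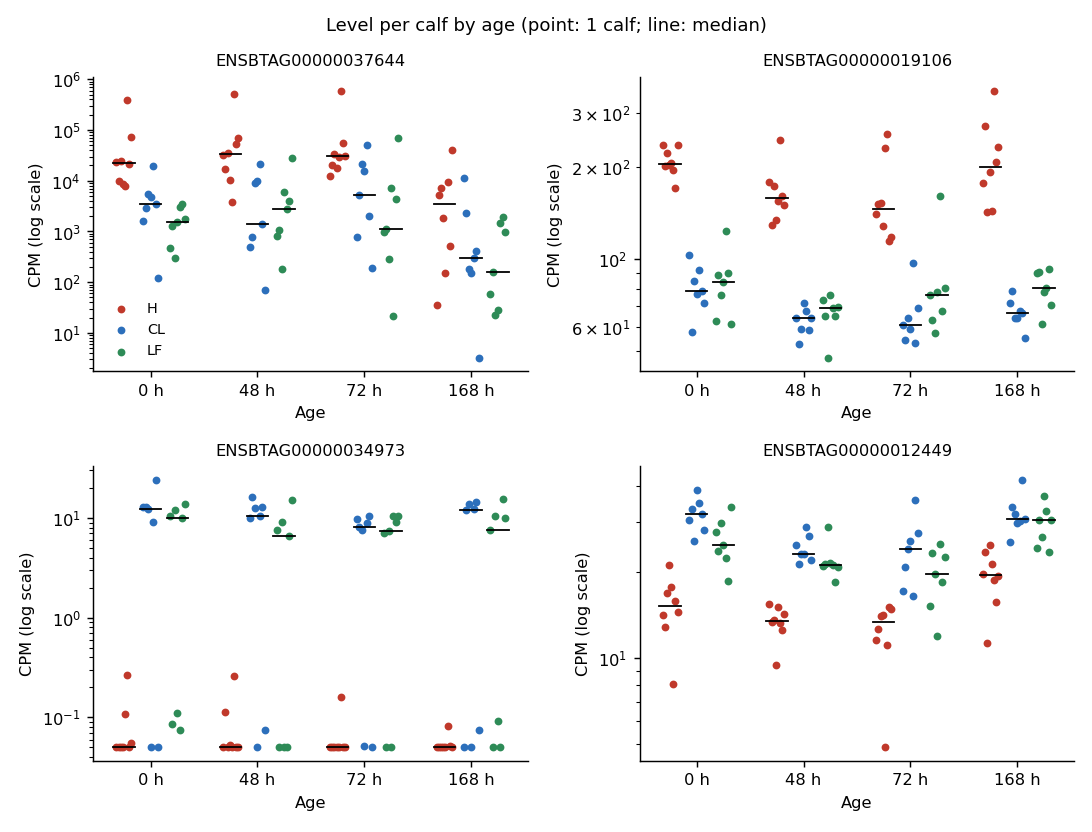
Level of the 4 genes described in each calf by age. Each point is 1 calf, in CPM on a log axis, coloured by breed, with a line at the median of the group; values under 0.05 CPM are drawn at 0.05. At 48 h the groups do not overlap for ENSBTAG00000019106 and ENSBTAG00000012449, and ENSBTAG00000034973 falls into a high and a near-zero level. Each calf kept its level except in the libraries labelled LF calf 5 at 72 h and CL calf 1 at 168 h. Both of these libraries matched another calf better by 10 genes that include this one, as described below.

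Sampling at the other ages showed how far the 48 h differences had been there at birth, before colostrum. At 0 h, 2338 of 12912 genes (18.1%) were DEG between dairy and beef calves, 1457 higher (11.3%) and 881 lower (6.82%). The 0 h library of LF calf 1 had 27.7% unmapped reads, against at most 3.54% in the other 0 h libraries. It also had 32.8% multimapping reads and the fewest reads on genes of the series (10023822). The 0 h counts and the test of change below were not run without it. Of the 1151 genes that were higher at 48 h, 876 were also higher at 0 h, which is 76.1% of the 48 h list and 60.1% of the 0 h list. Of the 455 lower genes, 306 were also lower at 0 h, or 67.3% of the 48 h list and 34.7% of the 0 h list. Opposite calls at the 2 ages were found for 0 genes. When H calf 6 was left out, 1257 genes were higher and 746 lower at 0 h, and the shared counts were 644 and 227. The samples at 0 and 48 h came from the same calves, so the 2 lists share animals.

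Fewer genes differed at the later ages. At 72 h, 999 of 12840 genes (7.78%) were DEG, 566 higher (4.41%) and 433 lower (3.37%), and at 168 h 1180 of 12965 (9.1%), 779 higher (6.01%) and 401 lower (3.09%). The higher genes of 48 h that were again higher numbered 376 at 72 h (32.7% of the 48 h list and 66.4% of the 72 h list) and 422 at 168 h (36.7% and 54.2%). The lower genes that were again lower numbered 173 at 72 h (38.02% and 39.95%) and 184 at 168 h (40.4% and 45.9%). Without H calf 6, the genes shared with 72 h numbered 213 higher (23.4% of the 48 h list and 59.2% of the 72 h list) and made up 32.3% and 31.9% of the lower lists, and those shared with 168 h 328 higher and 172 lower. The DEG at 72 h were then 360 higher and 417 lower, so that the larger share was lower in dairy calves. The multimapping share of that calf was back in the range of the others at 168 h, and there the count without it was 671 higher and 367 lower DEG.

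At the later ages, 5 of the beef libraries matched another calf better than the calf they are labelled with. In 10 genes that were fully on or off in each calf and alike at 0 and 48 h, LF calf 5 at 72 h matched CL calf 1 in 10 of 10 genes and its own earlier samples in 4. CL calf 1 at 168 h matched LF calf 5 in 10 of 10 and its own in 4, LF calf 6 at 168 h matched CL calf 6 in 10 and its own in 8, and CL calves 2 and 3 at 168 h each matched another beef calf in 10 and their own in 9. The last 2 differ by 1 gene, and 10 of the 22 calves shared the state of all 10 genes with another calf, so the genes tell calves apart only in part. All 5 libraries matched beef calves and were kept in the beef group. LF calf 5 at 72 h and CL calf 1 at 168 h each matched the calf of the other library. The age of these 2 libraries is therefore in doubt as well as the calf, and an exchange between them was not tested. Without the 5 libraries, 850 genes were DEG at 72 h and 1376 at 168 h. No library at 0 or 48 h was left out, as those ages defined the 10 genes.

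The direction of the 48 h differences held at each age for most genes. The median log2 fold change of the genes that were higher at 48 h was 0.89 at 0 h, 0.68 at 72 h and 0.57 at 168 h, against medians of −0.04, 0.04 and −0.03 over all tested genes. That of the lower genes was −0.78, −0.64 and −0.58. Of the higher genes that could be tested at the other age, 99.4% had the same sign at 0 h, 98.4% at 72 h and 92.5% at 168 h, and of the lower genes 98.8%, 94.6% and 98.4%. Over all tested genes the same shares were 86.4%, 76.0% and 77.7%. The same calves were sampled at each age, H calf 6 among them, and these medians and shares were not computed without that calf. In all, 217 genes were higher and 72 lower in dairy calves at each of the 4 ages, among 12541 genes tested at every age. A further 162 higher and 75 lower genes were DEG at 48 h alone. When H calf 6 was left out, 119 genes were higher and 54 lower at all 4 ages.

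**Figure D4:**
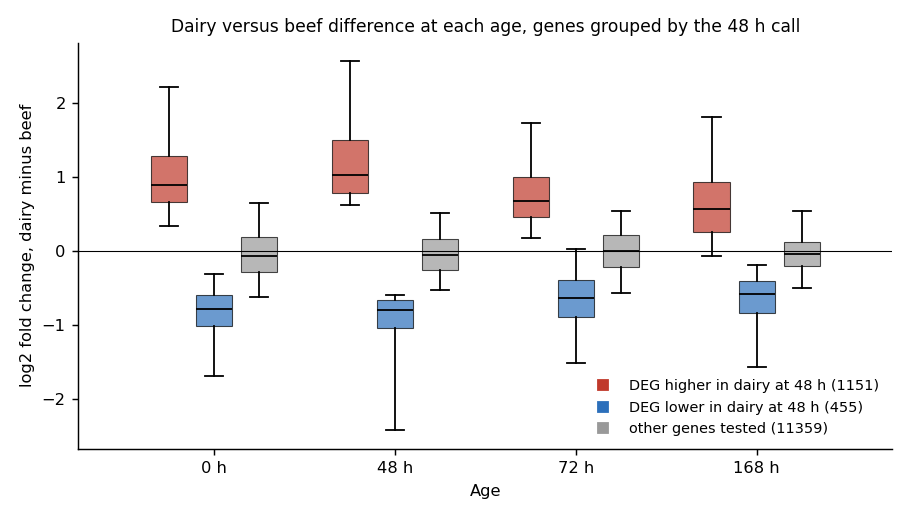
Difference between dairy and beef calves at each age for the genes grouped by their 48 h call. Boxes give the quartiles and the median, and whiskers the 5th to 95th percentile, of the log2 fold change (dairy minus beef) over the genes of each group. The median of the genes higher at 48 h is 0.89 at 0 h and 0.57 at 168 h, and the median of the lower genes goes from −0.78 to −0.58; the 48 h boxes themselves reflect how the groups were chosen.

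Among the 4 genes described, ENSBTAG00000019106 was higher in dairy calves at every age, with log2 fold changes of 1.32 at 0 h, 1.12 at 72 h and 1.55 at 168 h (SE 0.11, 0.18 and 0.14; edgeR adjusted p = 1.41e-07, 0.000883 and 9.11e-07). The groups did not overlap at 0 and 168 h. At 72 h 1 LF library (160 CPM) lay within the H range, the library labelled LF calf 5 that matched another calf better. ENSBTAG00000012449 was lower at every age, by −0.94, −0.82 and −0.66 (edgeR adjusted p = 6.38e-05, 0.0072 and 0.000614). ENSBTAG00000034973 was at most 0.27 CPM in every H library at every age, and its edgeR adjusted p was at most 0.00159 at each. ENSBTAG00000037644 had log2 fold changes of 4.27 at 0 h and 2.98 at 72 h (edgeR adjusted p = 0.000378 and 0.0494). At 168 h it was 2.55 and not a DEG (edgeR adjusted p = 0.0925), and the 72 h call was lost without H calf 6 (log2 fold change 1.18, edgeR adjusted p = 0.413). Its median fell in both systems from 48 h to 168 h, to 3482 CPM in H calves and 243 CPM in beef calves.

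Whether the change from birth to 48 h itself differed between the systems was tested as an interaction over the 44 samples of both ages. By edgeR, 0 of 13408 genes passed (0%), with 458 genes (3.42%) at an unadjusted p under 0.05, and DESeq2 also called 0. Both fits leave out that the 2 samples of a calf are alike, which makes them less able to find a difference in change. With the calf as a block, which pairs the 0 h and 48 h sample of each animal, 1 gene passed and 908 genes (6.77%) had an unadjusted p under 0.05. That gene, ENSBTAG00000007147, was singled out after its values were seen. It was at 3.74 ± 0.70 CPM (SD, n = 8) at 0 h and 4.11 ± 1.42 CPM at 48 h in dairy calves, and at 2.63 ± 0.88 CPM (SD, n = 14) and 6.35 ± 2.28 CPM in beef calves. The difference in change was −1.20 on the log2 scale (SE 0.17, edgeR adjusted p = 0.00478 with the block), and −1.16 without the block (edgeR adjusted p = 0.587). A p that misses the threshold does not show that the change was equal, and none of the 4 genes above passed (edgeR adjusted p of at least 0.944 with the block).

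Each beef breed was also set against the dairy calves on its own, with the 8 H calves shared by both comparisons. Against CL calves, 2383 of 12719 genes (18.7%) were DEG, 1418 higher (11.1%) and 965 lower (7.59%) in dairy calves. Against LF calves, 430 of 12682 genes (3.39%) were DEG, 369 higher (2.91%) and 61 lower (0.481%). The counts were 2288 and 368 without H calf 6. The spread between calves was wider among LF than CL calves (median standard deviation of log2 CPM 0.32 and 0.23). A direct test of LF against CL calves, which is the test of whether their differences from H calves differ, gave 0 DEG of 12838 genes (0%) by edgeR, with 2908 genes (22.7%) at an unadjusted p under 0.05 and a smallest adjusted p of 0.0566. DESeq2 gave 580 DEG in the same calves, 489 higher and 91 lower in LF calves, so the outcome of this test depends on the tool.

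Among the DEG of the pooled comparison, the median differences from the 2 beef breeds were closer in size than these counts. Those genes were called against both breeds together in the same samples, so a difference from each breed was partly built in by that choice. Over all tested genes the median log2 fold changes were −0.02 against CL and −0.03 against LF calves. The genes that were higher in dairy calves had a median log2 fold change of 1.12 against CL and 0.95 against LF calves, and the lower genes −0.94 and −0.59. The LF mean was above the CL mean in 69.6% of the higher DEG and in 15.4% of the lower DEG, against 47.1% of all tested genes, so that in most genes of both lists the LF mean lay on the dairy side of the CL mean. The median difference, LF minus CL, was 0.14 in the higher DEG, −0.38 in the lower DEG and −0.02 over all genes on the log2 scale. In the samples of the same calves at 0 h it was −0.02, −0.14 and 0.00. With all libraries under their labels it was −0.01, −0.26 and −0.01 at 72 h, and 0.06, −0.06 and 0.00 at 168 h. ENSBTAG00000019106 differed by 1.39 from CL and 1.32 from LF calves (edgeR adjusted p = 2.31e-05 and 0.000672), and ENSBTAG00000012449 by −0.88 and −0.70 (edgeR adjusted p = 6.96e-05 and 0.0108). ENSBTAG00000037644 differed by 3.898 from CL and 3.93 from LF calves, and was a DEG against CL but not LF calves (edgeR adjusted p = 0.0275 and 0.0632).

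**Figure D5:**
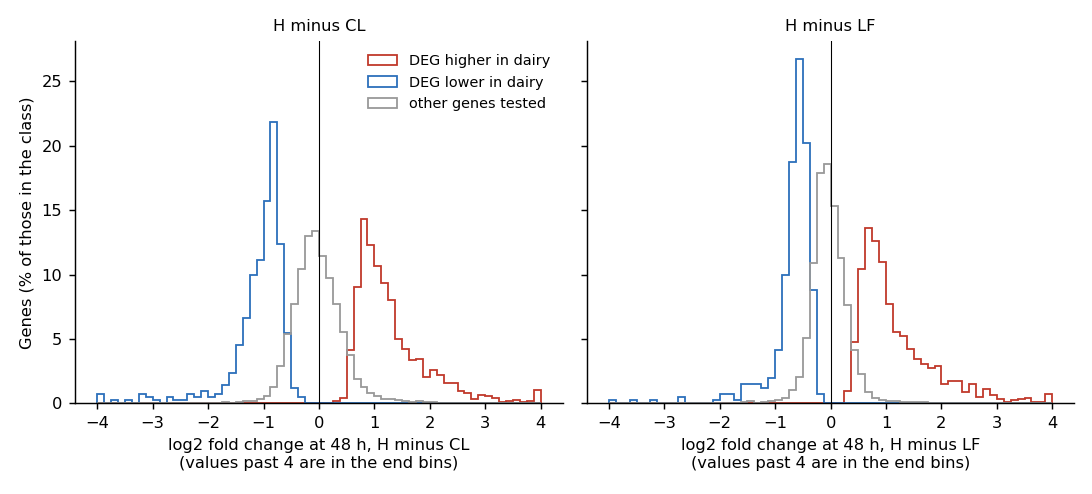
Difference at 48 h between H and CL calves (left) and between H and LF calves (right) for the genes grouped by the comparison with all beef calves. Curves give the percent of genes of each group by log2 fold change, with values past 4 in the end bins. The lower DEG have a median of −0.94 against CL and −0.59 against LF calves; both panels use the same H calves and the samples that defined the groups.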

How the data were processed

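Whole blood RNA was collected in Tempus tubes and made into single-end Illumina TruSeq libraries. The authors trimmed reads with cutadapt, mapped them against the cattle assembly UMD3.1 with STAR, rejected samples with few reads and deposited raw read counts per Ensembl gene; per the labels, DESeq2 was their test. The unstranded count was used, since the 2 strands held 50.6% and 49.8% of it, so a gene and an overlapping antisense gene cannot be told apart. STAR leaves multimapping reads uncounted, which lowers genes with near-identical copies. Totals per library are given with the results, and 3 counts correspond to the smallest level that could be shown.

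Samples were grouped by breed, time point and tag number in the labels. The 22 samples at 48 h were fitted with edgeR 4.0.16 in R 4.3.3 (quasi-likelihood test, robust dispersion, TMM normalisation, default filter on low counts), and 24616 genes were listed, of which 4667 had no count at 48 h. Genes with a p under 0.05 after Benjamini-Hochberg adjustment over all genes tested and a change of 1.5-fold or more were DEG. Standard errors are the log2 fold change over the square root of F. CPM values share 1 TMM scale over all 88 libraries, and log2 CPM used a prior count of 2. Library measures were compared by exact two-sided permutation tests over 319770 regroupings (116280 without H calf 6) in Python 3.11.15 with numpy 2.4.6 and adjusted over 6 measures. The exact interval used scipy 1.17.1. Calves are separate animals, so the spread is between animals. Among the 70 pairs of libraries within a breed at 48 h, chi-square over degrees of freedom was at least 58.6, and no library was counted as a copy of another. The 0 h and 48 h samples were paired by tag number; for 22 of 22 calves the deviation from the breed mean correlated best with the same calf at the other age (r from 0.267 to 0.701, median 0.492).

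The rule for the genes to name was the 10 with the largest fold change and the 5 with the smallest p in each direction among DEG with at least 1 CPM in the higher group, together with gene lists by symbol. No symbols could be matched, so at most 2 identifiers per direction are given: the smallest p in each direction, the largest fold among the lower genes and the most abundant of the 10 higher genes with the largest folds. The lists and the removal of erythroid genes were not applied, and no sequence is shown. The members and lists were chosen with earlier results of these data known. Alternatives were DESeq2 1.42.0, RLE normalisation, other filters, thresholds and sample sets, and the omission of each calf. The test of LF against CL calves, the multimapping covariate, the removal of the 10 most abundant genes, and the omission of H calf 6 from the other results, of 3 beef calves and of libraries that did not match their calf were chosen after seeing the data. On/off genes were under 0.3 or over 2 CPM in every calf at 0 and 48 h, with at least 2 calves in each state. The scripts were tested on simulated data.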

Additional observations from a re-analysis of the deposited data

Results flagged for a closer look

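Groups of 7 or 8 calves of 1 breed at 48 h numbered 30. In 10 of them the gap of 1 calf to the next was beyond Dixon's 95% limit, and 6 of the 10 were H calf 6. The 1 in 20 that chance gives holds for independent, normally spread groups. The measures here share libraries, CPM was not on a log scale and the genes were chosen from these data. The 10 of 30 can therefore not be set against that rate. H calf 6 had 49.1% multimapping reads (the next highest H calf had 25.5%), 8.69% of reads outside genes (next lowest 20.5%) and 48.8% of gene counts on its 10 most abundant genes (next highest 20.2%). It was highest for ENSBTAG00000037644 at 521700 CPM (next 70410 CPM), for ENSBTAG00000019106 at 244 CPM (next 177.7 CPM) and for ENSBTAG00000034973 at 0.26 CPM (next 0.11 CPM). For the last gene both calves had 2 counts, under the 3 taken as the smallest level shown, so the gap reflects the scaling to CPM. LF calf 4 had 4.36% unmapped reads, against 2.31% in the next LF calf. LF calf 7 was highest among LF calves for ENSBTAG00000037644, at 27730 CPM against 5903 CPM. LF calf 3 was lowest for ENSBTAG00000019106, at 47.5 CPM against 65.01 CPM, and highest for ENSBTAG00000012449, at 28.9 CPM against 21.4 CPM.

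ENSBTAG00000007147 changed differently from 0 h to 48 h in dairy and beef calves, by −1.20 on the log2 scale (dairy minus beef), in the edgeR fit with the calf as a block.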

How the results depend on the processing

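Higher DEG outnumbered lower DEG at 48 h under all 35 alternatives, and 33 kept the count within 1.5 times 1606. A test against a fold change of 1.5 left 208 DEG (197 higher, 11 lower), and adjusted p alone gave 3851 (2005 higher, 1846 lower). Leaving out 1 calf gave 1322 (H calf 6) to 1818 DEG, with 68.8% to 75.8% higher. DESeq2 gave 1834. Against LF calves, DESeq2 gave 966 DEG and no filter on low counts 240, against 430, and between LF and CL calves DESeq2 gave 580 against 0. With calf as a replicate block the change from 0 h to 48 h gave 1 DEG, also without H calf 6 (1), and no other call was changed by the pairing, which the main comparison of different animals does not have. ENSBTAG00000012449 was lost in the test against 1.5-fold (adjusted p = 0.138, edgeR), ENSBTAG00000037644 with the multimapping covariate, and the lower number of genes detected in H calves (−305 genes) without H calf 6 (−207 genes; exact permutation test, adjusted p = 0.0967). The filter of 10 counts in every sample gives no value for ENSBTAG00000034973. The removal of erythroid genes was not run. Depth limits the weakest genes, since 3 counts correspond to 0.389 CPM in the shallowest 48 h library.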
